A study of Mus musculus with 8 samples.

Results

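Myc and 7 genes of polyamine metabolism were followed in mouse natural killer (NK) cells. The members were chosen by symbol from the count matrix: Myc, Odc1, Azin1, Oaz1, Amd1, Srm, Sms and Sat1, 8 of its 27179 genes, and all 8 had enough counts to be tested. The members and the gene lists used below were chosen with earlier results of these data known. RNA sequencing covered 8 libraries, 2 per group, of NK cells from C57BL/6 mice. The 4 groups cross 2 genotypes, wild type (WT) and CIS-/- (CIS-null), with 2 states, ex vivo and in vitro. CIS is the product of Cish, an intracellular inhibitor of cytokine signalling. Cells of every group came from spleen, bone marrow and blood and were enriched with DX5 (anti-CD49b) beads, so the preparations can hold other cells that carry this antigen. What the in vitro cells were grown in, with which cytokines and for how long, and the sex and age of the mice, are not given in the labels.

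Polyamines (putrescine, spermidine and spermine) are small cations that bind nucleic acids and that growing cells need. Ornithine decarboxylase (Odc1) makes putrescine, spermidine synthase (Srm) and spermine synthase (Sms) add aminopropyl groups supplied by S-adenosylmethionine decarboxylase (Amd1), and spermidine/spermine acetyltransferase (Sat1) opens the way back and out of the cell. Antizyme (Oaz1) binds ornithine decarboxylase and sends it to the proteasome, antizyme inhibitor (Azin1) takes antizyme away from it, and the transcription factor Myc is known to activate Odc1 and other genes of the pathway in dividing lymphocytes.

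Each library held 21.5 to 28.1 M (1e6) counts. Cish checked the labels: it lay at 9.26 and 9.12 normalised counts per M (CPM) in WT and 1.29 and 2.64 CPM in CIS-null cells ex vivo, with 219.8 and 201.9 CPM against 21.2 and 17.2 CPM in vitro. All 12 NK marker genes listed were tested, and their sum ran from 28720 to 61477 CPM over the libraries. Most of them fell on culture, 9 in WT and 8 in CIS-null cells, where 31.6% and 37.5% of all tested genes fell. Among them were Itga2, which encodes CD49b (log2 -3.80 and -4.80), and Tbx21 (-2.29 and -2.86). In each genotype 2 of the 12 rose, against 32.1% and 34.8% of all tested genes, Gzmb among them (3.60 and 4.62). The granzyme genes Gzma and Gzmb gave 20327 and 24149 of the 55224 CPM in CIS-null in vitro replicate 1. Libraries labelled with 1 genotype differed in sex-linked RNA. Xist, the RNA of the inactive X chromosome, lay at 119.6 and 162 CPM in WT cells ex vivo, against 0.322 and 0.197 CPM for CIS-null, with 0 and 0.0351 CPM in WT against 131 and 89.7 CPM in CIS-null cells in vitro. The Y-linked gene Ddx3y lay at 44.1 and 28.1 CPM in WT cells ex vivo, beside Xist, at 67.4 and 110.5 CPM in CIS-null cells ex vivo, at 79.3 and 82.6 CPM in WT cells in vitro, and at 0 and 0.0400 CPM in the CIS-null libraries in vitro. Sex-linked expression therefore cannot be told apart from genotype in either state, nor from culture in either genotype. Nothing in the labels ties a replicate to its own mouse or culture. The p-values therefore cover the spread between these libraries only, which may be technical.

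The sequences of 2 members bear on how their counts can be read, because each has a near-identical copy elsewhere in the genome. Oaz1 messenger RNA carries a stop codon (TGA, in capitals) at which ribosomes must shift frame to make antizyme, a step that polyamines are known to promote. The 60 bases around it are the same in the processed pseudogene Oaz1-ps:
Oaz1 and Oaz1-ps: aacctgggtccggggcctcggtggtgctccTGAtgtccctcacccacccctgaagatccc
Over the 685 bases of Oaz1-ps, 680 (99.27%) matched Oaz1. Of the 50-base windows of the Oaz1 transcript, 52.2% occur in Oaz1-ps too. Oaz1 lies on chr10:80826656-80829290 and Oaz1-ps on chr17:17345456-17346140 (GRCm38, GENCODE annotation). Amd1 (chr10:40287458-40302186) has the copy Amd2 on chr10:35708675-35711892, and 1001 of 1002 coding bases are identical. The following stretch holds the base that differs, in capitals:
Amd1: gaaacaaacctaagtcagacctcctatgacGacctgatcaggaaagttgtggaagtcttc
Amd2: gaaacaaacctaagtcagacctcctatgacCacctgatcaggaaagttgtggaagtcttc
Of the 50-base windows of Amd1, 87.6% occur in another annotated gene. The counting of reads that fit several places is not given in the sources used here, so the division of reads within both pairs is uncertain. Odc1 shared 42.2% of its windows with 16 other genes and Sms 28.7% with 6, but the copies of these genes that the matrix lists held 4.83% of the Odc1 counts or less. Sat1 shared 7.28%, Azin1 6.43% and Srm 2.41%, while Myc shared 0.

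The Odc1 promoter is shown because Odc1 had the largest change on culture of the 8 members. Myc and its partner Max are known to bind the hexamer CACGTG and, less tightly, CACGCG, and the second was added to the search after the Odc1 letters had been seen. Windows from 250 bases before to 50 after the start were taken from RefSeq (GRCm38.p6) for 5 of the 8 members, in 6 windows. Matches on either strand are in capitals.
Odc1, chr12:17544623-17544922, plus strand: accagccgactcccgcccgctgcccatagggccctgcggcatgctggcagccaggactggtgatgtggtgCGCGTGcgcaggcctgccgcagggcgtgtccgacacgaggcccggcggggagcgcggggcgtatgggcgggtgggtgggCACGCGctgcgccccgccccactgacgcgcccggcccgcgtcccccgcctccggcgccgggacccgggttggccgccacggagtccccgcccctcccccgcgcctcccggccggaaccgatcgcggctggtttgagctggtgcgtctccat
Sms, chrX:157492238-157492537, minus strand: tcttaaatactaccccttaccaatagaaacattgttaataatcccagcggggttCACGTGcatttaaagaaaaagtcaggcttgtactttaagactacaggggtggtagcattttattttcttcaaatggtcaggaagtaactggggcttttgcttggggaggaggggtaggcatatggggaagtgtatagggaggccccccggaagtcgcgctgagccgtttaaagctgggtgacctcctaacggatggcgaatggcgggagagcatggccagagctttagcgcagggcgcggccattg
The Odc1 window held CACGCG 2 times, counting its reverse complement CGCGTG, and CACGTG 0 times. The first Sms window held CACGTG 1 time. CACGCG was also found 1 time in the second Sms window and 1 time in the Oaz1 window, and neither hexamer in those of Amd1 and Sat1. Of 32851 promoter windows of this length, 7.15% held CACGTG and 9.27% held CACGCG. A match describes the letters and shows no binding, and sequence outside these windows was not searched.

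Per kilobase of gene length, so that genes can be compared, Sat1 was the most abundant member ex vivo and Odc1 in vitro, by the reads assigned to each gene itself. In WT cells ex vivo the order of mean levels was Sat1 (76.8 ± 4.22 CPM per kb, SD, n = 2), Oaz1 (65.0 ± 1.25), Azin1 (42.9 ± 0.634), Myc (23.4 ± 1.90), Odc1 (13.5 ± 0.688), Srm (10.3 ± 0.985), Sms (8.52 ± 0.522) and Amd1 (7.45 ± 0.444), and no neighbours in this order overlapped. CIS-null cells ex vivo had the same order of means, but Sat1 overlapped Oaz1, Srm overlapped Sms, and Sms overlapped Amd1. In WT cells in vitro the order was Odc1 (84.7 ± 1.29), Oaz1 (74.7 ± 5.78), Azin1 (51.1 ± 2.11), Myc (51.0 ± 3.07), Srm (42.0 ± 3.05), Sat1 (39.0 ± 1.74), Amd1 (8.03 ± 1.41) and Sms (7.66 ± 0.313). The libraries of Azin1 and Myc, of Srm and Sat1, and of Amd1 and Sms overlapped there. In CIS-null cells in vitro it was Odc1 (142.6 ± 15.3), Oaz1 (90.7 ± 9.85), Srm (89.5 ± 1.41), Azin1 (66.6 ± 6.54), Myc (43.0 ± 10.7), Sat1 (41.2 ± 8.01), Amd1 (13.1 ± 1.63) and Sms (8.88 ± 1.14), with overlaps between Oaz1 and Srm and between Myc and Sat1. Reads assigned to copies are not in these levels. Over all libraries Oaz1-ps held 574.3% of the Oaz1 counts. With those reads added, Oaz1 would stand above Sat1 ex vivo and above Odc1 in vitro, so the first place in these orders depends on how reads were divided.

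**Figure D1:**
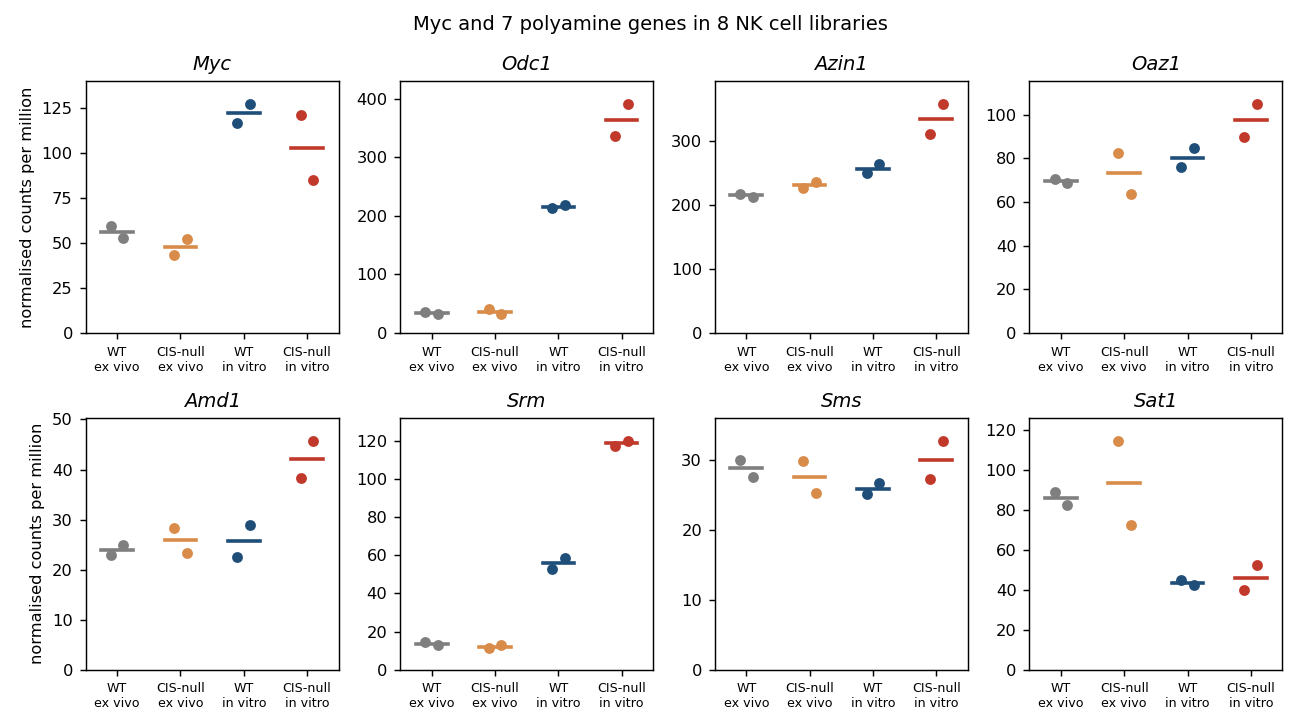
Level of each of the 8 genes in the 8 libraries, in normalised counts per M (vertical axes from 0, 1 scale per gene), by group of 2 libraries. Points are libraries and bars are group means; Srm and Odc1 climb from the ex vivo groups through WT to CIS-null cells in vitro, and Sat1 is lower in vitro.

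Myc itself rose on culture and was not shown to differ between genotypes. WT cells held 59.3 and 52.8 CPM ex vivo and 117 and 127 CPM in vitro. CIS-null cells held 43.2 and 52.6 CPM ex vivo and 121 and 85.1 CPM in vitro. Every in vitro library was above every ex vivo library, while in vitro the genotypes overlapped. The log2 fold change on culture was 1.12 for the WT cells (SE 0.172, edgeR adjusted p = 0.000583) and 1.11 for CIS-null cells (SE 0.172, edgeR adjusted p = 0.000458). Between genotypes (CIS-null minus wild type) it was -0.23 ex vivo (SE 0.172, edgeR adjusted p = 0.780) and -0.24 in vitro (SE 0.168, edgeR adjusted p = 0.315). Without CIS-null in vitro replicate 1 the in vitro difference passed (-0.52, edgeR adjusted p = 0.0375), and without replicate 2 it was close to 0 (-0.01). In these enriched but mixed preparations, fewer cells of a type and less RNA per cell cannot be told apart.

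Mycn, the paralogue better known from the nervous system, was nearly absent ex vivo and abundant in vitro, more so in CIS-null cells. Ex vivo it had 3 and 4 counts in the WT and 0 and 1 in the CIS-null libraries. In vitro it had 949 and 1002 counts in WT cells and 1572 and 1549 in CIS-null cells, or 33.0 and 35.2 CPM against 60.6 and 62.0 CPM. The in vitro groups did not overlap, and the log2 fold change was 0.85 (SE 0.111, edgeR adjusted p = 0.00409), although by limma on the deposited log2 RPKM values the call was lost (adjusted p = 0.0901). On culture the ratio of normalised counts was 239 in WT cells (95% counting interval 115.8 to 595.6). In CIS-null cells, with 1 count ex vivo, it was 2889.5 (518.2 to 114166). Both culture differences passed (edgeR adjusted p = 9.86e-08 and 3.70e-08). Per kilobase Mycn stayed below Myc in every library, at 12.7 and 13.6 CPM per kb in WT and 23.3 and 23.9 CPM per kb in CIS-null cells in vitro. The Mycn to Myc ratio of levels per kb within a library was 0.260 and 0.255 in WT and 0.461 and 0.674 in CIS-null cells.

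**Figure D2:**
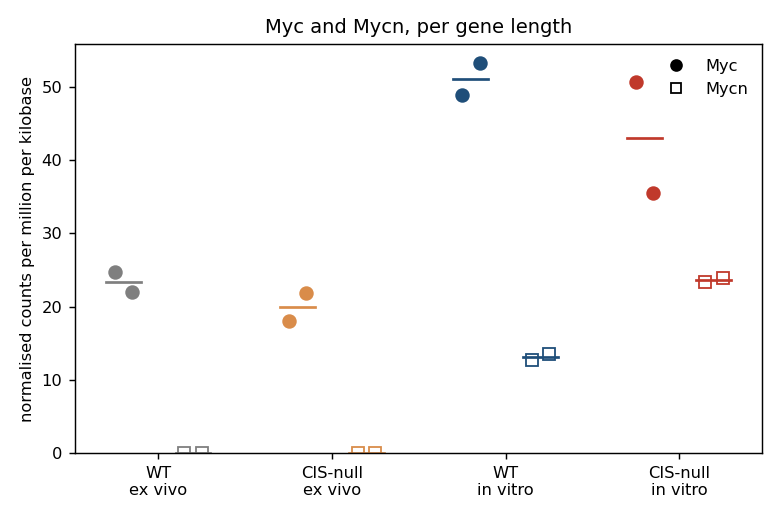
Myc (filled circles) and Mycn (open squares) in normalised counts per M per kilobase (vertical axis from 0), by group; points are libraries and bars are group means. Mycn lies at the axis ex vivo, at 12.7 and 13.6 in WT and at 23.3 and 23.9 in CIS-null cells in vitro.

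Of 14 listed partners and relatives of Myc, 12 were tested. In vitro 2 were higher and 3 lower in CIS-null cells, where 25.6% of all tested genes were called in either direction (11.0% higher and 14.6% lower). Beside Mycn, Max, the partner that Myc family proteins need to bind DNA, was higher (log2 fold change 0.42, edgeR adjusted p = 0.0170). Lower were Mga (-0.87, edgeR adjusted p = 0.00923) and Mxd4 (-0.54, edgeR adjusted p = 0.0243), which compete for Max, and Fbxw7 (-0.82, edgeR adjusted p = 0.0289), whose ubiquitin ligase degrades Myc. A fit that took out the trend of each library with gene length reduced the Mga difference to -0.19 and ended its call (edgeR adjusted p = 0.0963). The Mga call was also lost without WT in vitro replicate 1 (0.0611) or CIS-null in vitro replicate 2 (0.0597). Those of Fbxw7 and Mxd4 were lost without either CIS-null in vitro replicate 2 (0.167 and 0.163) or WT in vitro replicate 1 (0.148 and 0.151) and in other alternatives. On culture 3 rose and 5 fell in WT cells, and 3 rose and 6 fell in CIS-null cells. Mxd3 rose in both (log2 fold change 2.79 and 2.07) and Mxd1 fell in both (-1.54 and -2.04), each with an edgeR adjusted p of 0.000495 or below. The background on culture was 63.7% of tested genes called in WT and 72.4% in CIS-null cells, so calls were common among genes of every kind.

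Odc1, the enzyme of the first committed step, had the largest rise on culture of the members. It lay at 35.5 and 33.0 CPM in WT and 40.6 and 31.7 CPM in CIS-null cells ex vivo. In vitro it lay at 213 and 218 CPM in WT and 336 and 391 CPM in CIS-null cells. Ex vivo the genotypes overlapped, and in vitro both CIS-null libraries were above both WT libraries. The rise on culture was 6.29-fold in WT (log2 2.65, SE 0.138, edgeR adjusted p = 1.74e-06) and 10.1-fold in the CIS-null cells (log2 3.33, SE 0.141, edgeR adjusted p = 4.70e-07). In vitro CIS-null cells were 1.68-fold above wild type (log2 0.75, SE 0.128, edgeR adjusted p = 0.00722). Without CIS-null in vitro replicate 2 this difference was 0.64 and no longer passed (edgeR adjusted p = 0.0570).

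The regulators of the Odc1 protein moved less. Azin1 lay at 218 and 213 CPM in WT and 226 and 236 CPM in CIS-null cells ex vivo, with 249.6 and 265 CPM against 311 and 358 CPM in vitro. The groups did not overlap in either state, but the gap ex vivo was small (log2 0.10, SE 0.0974, edgeR adjusted p over all genes 0.808). In vitro the CIS-null libraries were higher in Azin1 by 0.38 (SE 0.0973, edgeR adjusted p = 0.0249), a call kept in 12 of 20 alternatives and lost without either WT in vitro library (0.120 and 0.0895), either WT ex vivo library (0.0661 and 0.0662) or CIS-null in vitro replicate 2 (0.129). On culture it rose by 0.25 in WT (SE 0.0974, edgeR adjusted p = 0.0473, kept in 11 of 20 alternatives) and CIS-null cells gave 0.53 (SE 0.0975, edgeR adjusted p = 0.00113, kept in all 20). The WT rise was lost without any 1 WT library (0.139 to 0.201). With the length trend removed the 3 differences were 0.67, 0.53 and 1.05, and all passed. An exon of Azin1 overlaps the antisense gene Gm49077 by 358 bases, and whether strand was used in counting is not given in the sources used here.

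Oaz1 was counted at a fraction of its copy. Oaz1 lay at 70.7 and 68.8 CPM in WT and 82.6 and 63.6 CPM in CIS-null cells ex vivo, with 75.9 and 84.7 CPM against 90.0 and 105 CPM in vitro. Oaz1-ps lay at 354, 352, 420.3 and 345 CPM ex vivo and at 467, 523, 566 and 635 CPM in vitro, in the same order of libraries. The ratio of Oaz1-ps to Oaz1 counts was 5.01 to 5.42 ex vivo and 6.05 to 6.30 in vitro, so every library gave more counts to the pseudogene. Taken alone, Oaz1 rose on culture in CIS-null cells (log2 0.42, SE 0.138, edgeR adjusted p = 0.0233) and did not pass in WT cells (0.20, SE 0.138, edgeR adjusted p = 0.227), where it passed if the compared samples were fitted alone (0.20, edgeR adjusted p = 0.0316). With the counts of both summed, an alternative chosen after seeing the data, both passed, at 0.44 in WT (edgeR adjusted p = 0.0134) and, for CIS-null, 0.62 (0.00207). With the length trend removed Oaz1 alone was at -0.04 and -0.01, so its direction on culture was not settled. The CIS-null rise was also lost without CIS-null ex vivo replicate 2 (0.126) or CIS-null in vitro replicate 2 (0.136). In vitro the genotypes did not overlap, yet the difference of 0.28 did not pass (SE 0.137, edgeR adjusted p = 0.165).

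**Figure D3:**
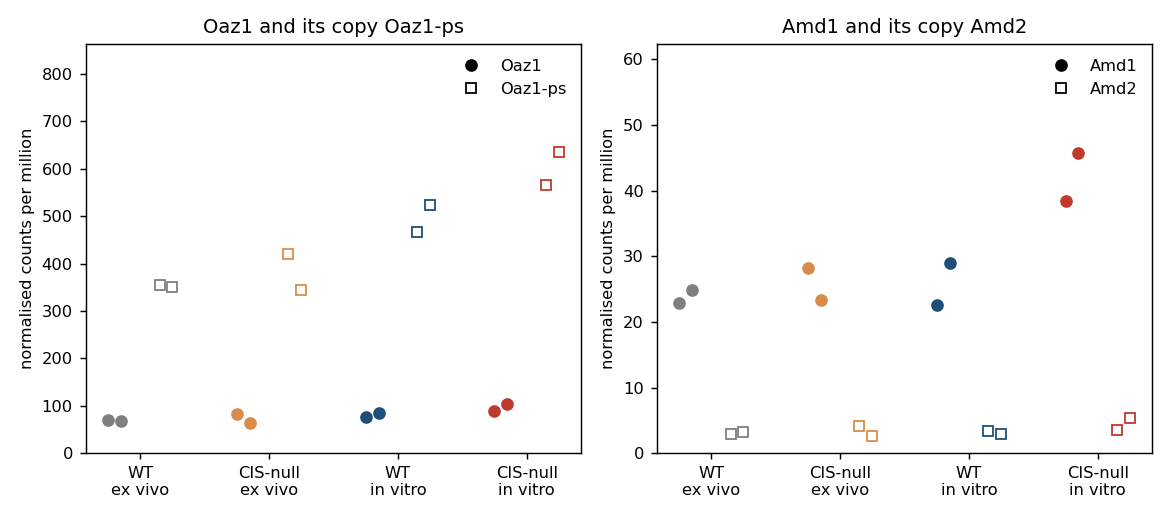
Levels of Oaz1 and Oaz1-ps and of Amd1 and Amd2 in normalised counts per M (vertical axes from 0), by group; filled circles are the member and open squares its copy, 1 mark per library. Oaz1-ps lies above Oaz1 and Amd2 below Amd1 in all 8 libraries.

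Amd1, whose product supplies the aminopropyl groups, was highest in the CIS-null cells in vitro. It lay at 22.9 and 24.9 CPM in WT and 28.3 and 23.4 CPM in CIS-null cells ex vivo. In vitro it lay at 22.6 and 28.9 CPM in WT and 38.4 and 45.8 CPM in CIS-null cells. Libraries of the other 3 groups overlapped. In vitro the genotypes differed by 0.71 (SE 0.154, edgeR adjusted p = 0.0145), a difference lost without WT in vitro replicate 1 (0.58, edgeR adjusted p = 0.0802) or CIS-null in vitro replicate 2 (0.58, 0.113). On culture Amd1 rose by 0.71 in the CIS-null group (SE 0.155, edgeR adjusted p = 0.00318), while WT cells gave 0.11 (SE 0.156). The test of the difference between these responses did not pass (0.60, SE 0.220, edgeR adjusted p = 0.202). Amd2 held 12.01% of the Amd1 counts and ran from 2.68 to 5.33 CPM, and summing the copies kept the in vitro call (0.68, edgeR adjusted p = 0.0159).

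Srm, which makes spermidine, showed the largest genotype difference among the members. It lay at 14.6 and 12.7 CPM in WT and 11.1 and 13.1 CPM in CIS-null cells ex vivo. In vitro it lay at 53.0 and 58.7 CPM in WT and 117 and 120.1 CPM in CIS-null cells. Ex vivo the genotypes overlapped, and in vitro both CIS-null libraries were above both WT libraries. The in vitro difference was 2.13-fold (log2 1.09, SE 0.109, edgeR adjusted p = 0.0027) and passed in all 20 alternatives, between 0.89 and 1.16. The rise on culture was 4.10-fold in WT (log2 2.03, SE 0.118, edgeR adjusted p = 2.93e-06) and 9.78-fold in the CIS-null cells (log2 3.29, SE 0.122, edgeR adjusted p = 3.05e-07).

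Sms, which makes spermine from spermidine, moved little in the same libraries. It lay between 25.1 and 32.7 CPM in all 8, and none of the 5 comparisons passed. They ran from -0.15 on culture in WT cells (edgeR adjusted p = 0.321) to 0.28 for the difference between states (SE 0.180, edgeR adjusted p = 0.432), with 0.21 between genotypes in vitro (SE 0.127, edgeR adjusted p = 0.244). With the length trend removed the culture difference in CIS-null cells passed (0.36, edgeR adjusted p = 0.0373). The ratio of Srm to Sms levels per kb was 0.951 to 1.32 ex vivo, 5.36 and 5.61 in WT and 10.9 and 9.34 in CIS-null cells in vitro. Sms and Sat1 are X-linked, and Xist separated the genotypes in both states, in opposite directions.

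Sat1, which acetylates spermidine and spermine for breakdown or export, fell on culture. It lay at 89.0 and 82.4 CPM in WT and 114 and 72.3 CPM in CIS-null cells ex vivo, with 44.9 and 42.2 CPM against 39.7 and 52.3 CPM in vitro. Every in vitro library was below every ex vivo library, and the genotypes overlapped in both states. The log2 fold change on culture was -0.98 in WT (SE 0.208, edgeR adjusted p = 0.00347) and CIS-null cells gave -1.02 (SE 0.209, edgeR adjusted p = 0.00213). Leaving out replicate 1 of CIS-null ex vivo, the higher of its pair, gave -0.65 for CIS-null cells, which still passed (edgeR adjusted p = 0.00573). In vitro the genotypes differed by 0.08 (SE 0.209, edgeR adjusted p = 0.814) and changed sign with the scaling to library totals. The ratio of Odc1 to Sat1 levels per kb went from 0.155 to 0.192 ex vivo to 2.08 and 2.27 in WT and 3.71 and 3.27 in CIS-null cells in vitro.

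Counted over the 8 members, 0 passed between genotypes ex vivo (0.0607% of all tested genes passed in edgeR, 0.0303% higher and 0.0303% lower). At an unadjusted edgeR p under 0.05 also 0 passed, where 844 of 13184 genes did. By DESeq2 0 members passed, where 45 of all genes did. Counts of 0 say little about so few genes. In vitro 4 were higher in CIS-null cells (Srm, Odc1, Amd1 and Azin1) and 0 lower, against 11.0% and 14.6% of all tested genes, and the median of the 8 was 0.33, beside 0 over all tested genes. On culture in WT cells 4 rose and 1 fell (32.1% and 31.6% of all tested genes), and in CIS-null cells 6 rose and 1 fell (34.8% and 37.5%). The medians of the 8 were 0.23 and 0.62, beside -0.00 and -0.05 over all tested genes. Odc1, Amd1 and Azin1 lost their in vitro genotype call without CIS-null in vitro replicate 2. Amd1 and Azin1 also lost it without WT in vitro replicate 1. Far fewer of all tested genes passed in these fits too.

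Whether the genotype difference itself differed between the states was tested in the same fit. Srm alone of the 8 passed (difference of log2 fold changes 1.26, SE 0.164, edgeR adjusted p = 0.0389), where 0.137% of all tested genes did (0.0531% higher and 0.0834% lower). This call was lost in 10 of 19 alternatives, among them library totals (0.0506) and 6 of the 8 fits without 1 library (0.0522 to 0.291). Of these 8 fits, those without replicate 1 of CIS-null ex vivo or replicate 1 of CIS-null in vitro kept it. The size ran from 1.11 to 1.38 over all alternatives. Odc1 was at 0.68 (SE 0.185, edgeR adjusted p = 0.127) and passed when replicate 1 of CIS-null ex vivo was left out (0.86, edgeR adjusted p = 0.0396) or when DESeq2 was used (0.71, adjusted p = 0.0167). For Myc the value was -0.02 (SE 0.241), and its sign changed with the scaling.

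**Figure D4:**
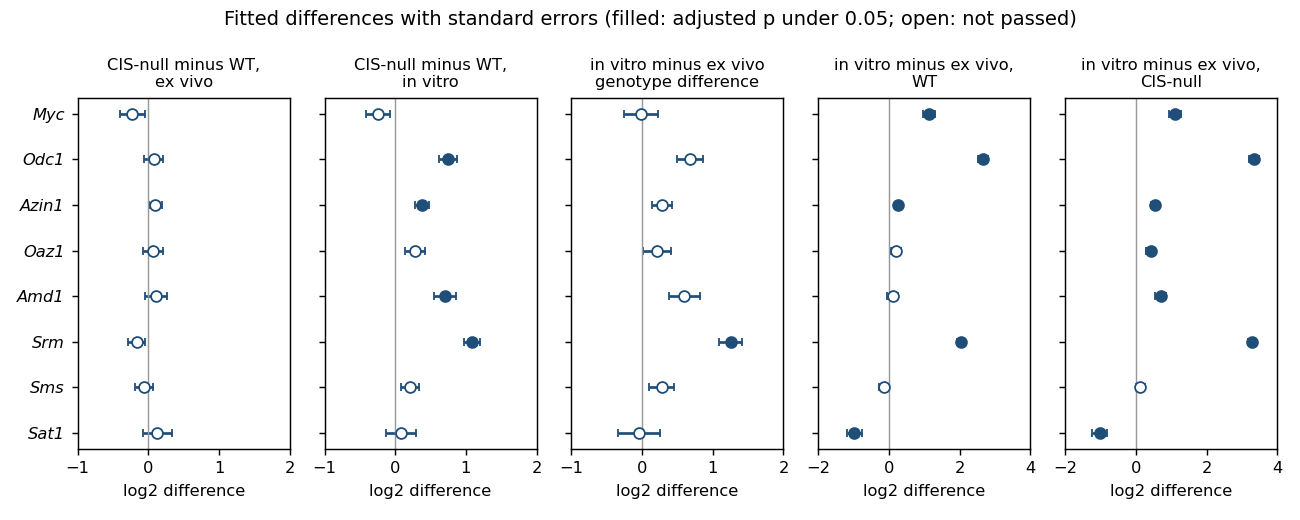
Log2 differences of the 8 genes in the 5 comparisons (horizontal axes, log2; bars are standard errors of the fit), with filled marks where the adjusted p was under 0.05. Ex vivo all 8 genotype differences are open; in vitro Srm, Odc1, Amd1 and Azin1 are filled, and on culture Odc1 and Srm lie farthest to the right and Sat1 to the left.

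Other measurements moved with the in vitro genotype difference, and their part in it was not tested. The summed level of 13 T cell markers was 747 and 610 CPM in WT and 1531 and 1554 CPM in CIS-null cells in vitro. Of the 13, 7 were called higher and 1 lower, where 11.0% and 14.6% of all tested genes were. Cd3d (mean 19.3 against 256 CPM, log2 fold change 3.73) and Cd3e (6.69 against 77.7 CPM, 3.54) were among the higher ones. Differences were positive for 10 markers and negative for 3. Tcf7 had a lower mean in CIS-null cells (96.3 in WT against 57.4 CPM), as had Lef1 (15.8 against 11.7 CPM). Cd4 had 3 and 2 counts in WT and 0 and 1 counts in CIS-null cells in vitro. Of the 13 markers 0 were at 0 in all libraries. The sum of 9 basophil and mast cell markers was 775 and 990 CPM in WT and 472 and 435 CPM for CIS-null, with Kit 2.17-fold lower and Mcpt8 2.85-fold higher. Of 9 monocyte and macrophage markers 2 were higher, Ly6c2 (3.92-fold) and Cd14 (4.10-fold), while their sum was 1781 and 1701 CPM in WT and 1244 and 1532 CPM for CIS-null. The sum of 12 proliferation genes was lower in CIS-null cells, at 1065 and 998 CPM in WT and 671 and 676 CPM in CIS-null cells. Of the 12, 3 were called lower and 0 higher, against 14.6% and 11.0% of all tested genes. These were Mki67 (-2.15), Cenpf (-2.03) and Cenpe (-1.91), the longest of the 12 (10075, 11130 and 7813 bases). Differences were negative for 10 and positive for 2. Mean levels were close for Ccnb1 (29.5 in WT against 29.6 CPM in CIS-null cells) and Cdk1 (114 against 115 CPM). Across genes, the in vitro genotype difference fell with gene length (Spearman -0.461 over 13184 genes, which are not independent), and the log ratio of the 2 CIS-null in vitro replicates did so too (-0.451). Srm is at the 18.5 percentile of length, Sat1 at 13.9 and Oaz1 at 12.9. With the trend removed Srm was at 0.89, Odc1 at 0.75, Amd1 at 0.80 and Azin1 at 0.67, all passing. On culture the other cells changed too: the sum of 10 B cell markers went from between 84.9 and 235.5 CPM ex vivo to between 1.43 and 3.16 CPM in vitro, and that of the proliferation genes rose from between 79.1 and 172 CPM to between 671 and 1065 CPM.

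Around the 8 genes, the polyamine machinery had few other measurable parts. Of 11 further enzymes and regulators 4 were tested (Smox, Paox, Oaz2 and Amd2). Smox, which oxidises spermine back to spermidine, lay at 16.2 and 14.4 CPM in WT and 15.9 and 13.2 CPM in CIS-null cells ex vivo, with 6.88 and 5.34 CPM against 10.6 and 14.2 CPM in vitro. It was 2.03-fold higher in CIS-null cells in vitro (log2 1.02, SE 0.196, edgeR adjusted p = 0.0102), and it fell on culture in WT cells (-1.33, edgeR adjusted p = 0.000489), while CIS-null cells gave -0.23 (edgeR adjusted p = 0.295). Its in vitro call was lost without WT replicate 2 (0.0625) or CIS-null replicate 2 (0.0791), and the difference between states did not pass (1.10, edgeR adjusted p = 0.114). Paox, the acetylpolyamine oxidase, rose on culture in both genotypes (1.44 and 1.20, edgeR adjusted p = 0.00254 and 0.00475) at levels of at most 3.72 CPM.

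Of 8 polyamine and arginine transporters 7 were tested, and in vitro 3 were higher and 1 lower in CIS-null cells, against 11.0% and 14.6% of all tested genes. Slc7a6 (log2 0.65, edgeR adjusted p = 0.00542) and Slc7a1 (0.41, 0.0381), carriers of cationic amino acids such as arginine, were higher, as was Slc3a2 (0.61, 0.0113), the heavy chain that pairs with Slc7a6. Atp13a2, which exports polyamines from lysosomes, was lower (-0.93, edgeR adjusted p = 0.0320), and it had fallen on culture from between 93.1 and 111 CPM to between 1.96 and 5.49 CPM (log2 -4.48 in WT and -5.42 in CIS-null cells). The Slc7a1 and Atp13a2 calls between genotypes were each kept in 11 of 20 alternatives. Slc7a1 was at 0.23 without CIS-null in vitro replicate 1 (edgeR adjusted p = 0.133) and Atp13a2 at -0.56 without WT in vitro replicate 1 (edgeR adjusted p = 0.200). On culture 2 rose and 4 fell in WT cells (background 32.1% and 31.6%), and 3 rose and 3 fell in CIS-null cells (34.8% and 37.5%).

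Spermidine is used to make hypusine, an amino acid found in the translation factor eIF5A. Eif5a lay at 564 and 550.0 CPM in WT and 668 and 535 CPM in CIS-null cells ex vivo, with 1112 and 1145 CPM against 1717 and 2006 CPM in vitro. Of the 4 genes of this step 3 were higher in CIS-null cells in vitro, where 11.0% of all tested genes were: Eif5a (log2 0.72, edgeR adjusted p = 0.0084), Dohh (0.61, 0.0111) and Dhps (0.35, 0.0302), the latter 2 encoding the enzymes that modify it. These 3 calls were lost without CIS-null in vitro replicate 2, a fit in which far fewer of all tested genes passed. The Dhps call was kept in 10 of 20 alternatives, and with the length trend removed Dhps was at 0.16 (edgeR adjusted p = 0.217). The same 3 rose on culture in both genotypes, Eif5a by 1.02 and 1.63, whereas the paralogue Eif5a2 fell (-0.95 and -0.93).

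Of 10 genes of the methionine cycle and salvage, which supply S-adenosylmethionine and recycle the by-product of both aminopropyl transfers, 3 were higher and 0 lower in CIS-null cells in vitro, against 11.0% and 14.6% of all tested genes. These were Mat2a (log2 0.72, edgeR adjusted p = 0.00381), which makes S-adenosylmethionine, and the salvage enzymes Mtap (0.65, 0.00764) and Enoph1 (0.54, 0.0111). Mat2a passed in all 20 alternatives, Mtap in 19 and Enoph1 in 18. On culture 8 of 10 rose and 1 fell in WT cells (background 32.1% and 31.6%) and 7 rose and 2 fell in CIS-null cells (34.8% and 37.5%), with Ahcy rising most (1.67 and 1.81).

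The list of 40 growth genes commonly associated with Myc is mostly of ribosome assembly and metabolism. Like the other lists it was chosen with earlier results of these data known, so its counts are descriptive. In vitro 30 of them were higher and 0 lower in CIS-null cells, against 11.0% and 14.6% of all tested genes. Their median was 0.53, beside 0 over all tested genes. Mrto4 (0.95), Nop16 (0.92), Slc7a5 (0.85) and Ldha (0.76) had the largest calls, and all 4 passed in all 20 alternatives. Differences were positive for 36 genes and negative for 4. Means were lower in CIS-null cells for Ncl (590 in WT against 441 CPM), Nolc1 (62.3 against 49.4), Ddx21 (171 against 156) and Cad (150 against 145). These 4 are 8257, 3636, 4743 and 7106 bases long, and Mrto4 and Nop16 930 and 1734. Other long genes of the list had higher means in CIS-null cells. Examples are Hk2 (5513 bases, 50.9 in WT against 82.8 CPM) and Tfrc (4914 bases, 243 against 374 CPM). Across all tested genes this difference fell with gene length (Spearman -0.461). Fewer genes of the list passed when either WT in vitro library or replicate 2 of CIS-null in vitro was left out. Far fewer of all tested genes passed in these fits too. Scaled to library totals, 21 were higher and 2 lower, with a median of 0.40. On culture 36 rose and 0 fell in WT cells (median 0.84, background 32.1% and 31.6%). In CIS-null cells 38 rose and 0 fell (median 1.41, background 34.8% and 37.5%). Tfrc led both (4.82 and 5.90). Ex vivo, 0 genes of these 6 lists around the members passed between genotypes, and the test of the difference between states called 0 of them. Of all tested genes only 0.0607% and 0.137% passed these tests, so counts of 0 say little about so few genes. Among the listed cell type markers, that test called Cd3g, from the T cell list (2.39, edgeR adjusted p = 0.0296). Which cells carried it was not tested. The Myc difference in vitro, given above, was of the opposite sign and did not pass.

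**Figure D5:**
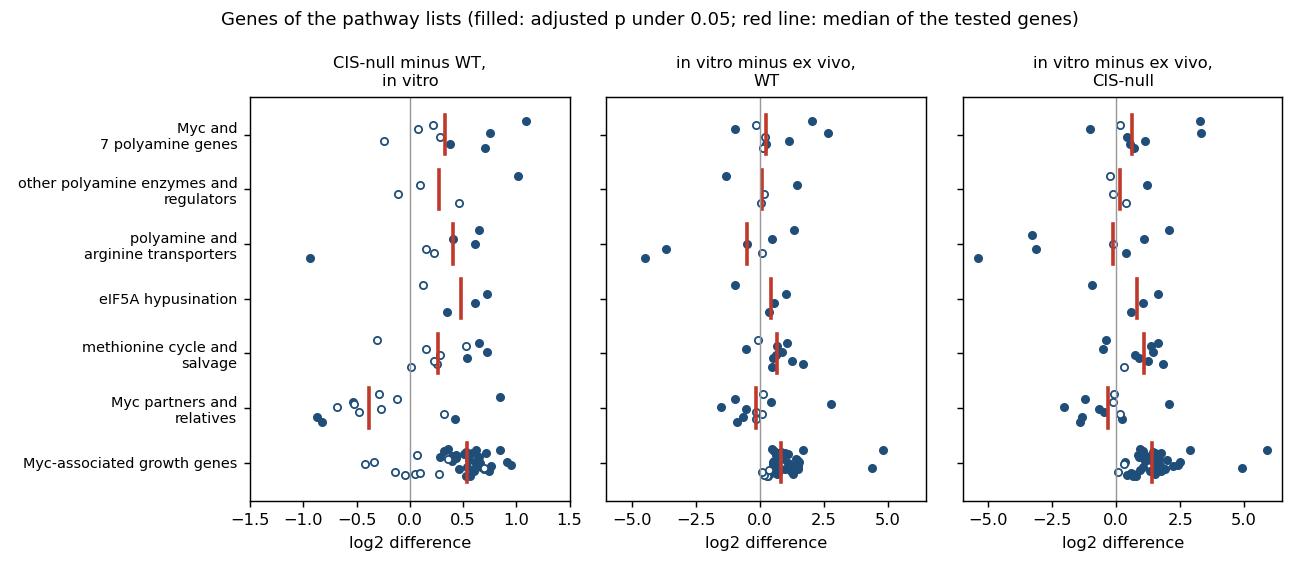
Log2 differences (horizontal axes) of every tested gene in the 7 lists, between genotypes in vitro and on culture in each genotype; filled marks have an adjusted p under 0.05 and red lines are medians of each list's tested genes. Mycn on culture (both genotypes) lies beyond the axes, as does Slc7a2 on culture in WT cells and between genotypes in vitro. Of 40 growth genes, 30 are filled to the right of 0 between genotypes in vitro.

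The genes whose profiles over the 8 libraries lay nearest to Myc, measured by the root mean square difference of centred log2 CPM among 9199 genes, were Gnaq, Map4k1, Man2a2, Mgat4a and Rel (0.108 to 0.118, where 5% of genes lay within 0.310). Those nearest to Odc1 were Pmm1, Ppa1, Plscr1, Pgk1 and P2ry14 (0.134 to 0.154, where 5% lay within 0.717). Among the members Srm was the nearest to Odc1 (0.273), and Myc was at 1.04 from it.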

How the data were processed

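RNA was sequenced from 8 NK cell libraries, and groups were taken from the sample labels. The deposited matrix holds raw read counts per gene, which the authors made with Subread and featureCounts on GRCm38/mm10, per the submitters' processing notes. Log2 RPKM values, made by the authors, are in the deposited files of each sample, with limma named in the same notes. From the values they look quantile normalised, and they list 0 of 311 X-linked genes with over 800 counts, so Sms and Sat1 have no value there. Versions, strand and the handling of shared reads are not given in the sources used here.

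The analysis of counts used edgeR 4.0.16 in R 4.3.3: filterByExpr by group (minimum count 10, minimum total 15; 13184 genes kept), TMM scaling, 1 mean per group over all 8 libraries (4 residual degrees of freedom), quasi-likelihood F tests for 5 comparisons, and Benjamini-Hochberg adjustment over all tested genes at 0.05. Levels are TMM-scaled CPM, divided by the matrix's gene length in kb where genes are compared. A standard error is the size of the log2 fold change divided by the root of its F. Mycn ratios carry exact 95% binomial intervals, which cover counting error only. Library totals of 21.5 to 28.1 M limit the precision of genes with few counts. In each group the replicates differed beyond counting noise (chi-square over its degrees of freedom 6.03 to 34.2).

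The members and gene lists were chosen with earlier results of these data known. Named beside the members were, for each list and comparison, up to 4 passing genes with the largest change, near-identical copies, Cish, Xist and the 5 genes of at least 5 CPM nearest in profile to Myc and to Odc1. Max, Slc7a1, Slc3a2, Oaz2 and the culture values of genes named in another comparison were named to complete small counts. Transcript windows and copies came from GENCODE M21 and promoters from RefSeq. Alternatives were RLE factors, library totals, 2 other low-count filters (none, or 5 CPM in 2 libraries), DESeq2 1.42.0, limma-voom, limma 3.58.1 on log2 RPKM, the compared samples alone, a replicate block, removal of each library's length trend (spline with 4 degrees of freedom), both together, and leaving out each library. Summing copies was added after seeing the data. The fits were tested on simulated data, where most of the smaller changes were missed and the share of false calls was above the nominal level, so a difference that did not pass is not shown to be absent.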

Additional observations from a re-analysis of the deposited data

Results flagged for a closer look

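The genotype difference of Srm differed between the states by a test of that difference in the shared fit. CIS-null minus WT was -0.17 on the log2 scale ex vivo and 1.09 in vitro, a difference of 1.26 (SE 0.164, edgeR adjusted p = 0.0389), and both CIS-null libraries lay above both WT libraries in vitro while the genotypes overlapped ex vivo. The call was lost in 10 of 19 alternatives, among them a replicate block (edgeR adjusted p = 0.0929) and 6 of the 8 fits without 1 library (0.0522 to 0.291).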

How the results depend on the processing

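Of 17 member differences that passed, 11 kept direction and call in every one of up to 20 alternatives, and the losses of the other 6 without 1 library are given in the report. Azin1 between genotypes in vitro also missed the threshold with library totals, limma on log2 RPKM and the compared samples alone (adjusted p = 0.0849, 0.0910 and 0.0513), and Oaz1 on culture in CIS-null cells with the first and last of these (edgeR adjusted p = 0.0753 and 0.0524). Azin1 on culture in WT cells did so with RLE factors, without a low-count filter, with a stricter one, by DESeq2 and with a replicate block (adjusted p = 0.0625 to 0.111). Between genotypes in vitro the count of 4 members ranged from 1 to 5 when 1 library was left out. The test of the difference between states called 1 member, but 0 with library totals, with limma on log2 RPKM, with a replicate block and with that block after length trend removal, 2 by DESeq2, and 0 to 2 when 1 library was left out. Replicate numbers do not pair the samples in the labels, and deviations of same-numbered samples correlated between -0.232 and 0.146. The replicate block moved the count of all called genes for the difference between states from 18 to 6, while DESeq2 gave 592, removal of the length trend 137 and no low-count filter 75; for genotype in vitro it was 3374 against 1926 with limma on log2 RPKM and 500 without CIS-null in vitro replicate 2, and for genotype ex vivo 8 against 45 by DESeq2, 23 without a filter, 41 without CIS-null ex vivo replicate 2 and 3 without either WT ex vivo library. Scaling to library totals moved the median of all tested genes to -0.13 for genotype in vitro, -0.15 for the difference between states and -0.17 on culture in CIS-null cells.

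Signs changed only among member differences that did not pass, except for Oaz1 on culture in CIS-null cells. With the length trend removed, and with the block added, Oaz1 was at -0.0079 and -0.0075 between genotypes ex vivo, at -0.0425 and -0.0430 on culture in WT cells and at -0.0060 and -0.0066 on culture in CIS-null cells. Sat1 between genotypes in vitro was at -0.058 with library totals and at -0.167 and -0.161 in those 2 fits. In the difference between states Myc was at 0.018 with RLE factors, 0.0335 without a low-count filter, 0.0021 with a stricter one and 0.0187 by DESeq2, and Sat1 at 0.0136 without a filter. Amd1 on culture in WT cells was at -0.028 by limma on log2 RPKM. The cause was not tested. When 1 library was left out, the genotype difference ex vivo ranged from -0.11 to 0.245 for Odc1, -0.19 to 0.053 for Sms, -0.033 to 0.244 for Amd1, -0.135 to 0.245 for Oaz1 and -0.245 to 0.419 for Sat1. Sat1 in vitro ranged from -0.133 to 0.263, the difference between states from -0.298 to 0.217 for Myc and from -0.340 to 0.323 for Sat1, Amd1 on culture in WT cells from -0.079 to 0.241 and Sms on culture in CIS-null cells from -0.0047 to 0.253. With 2 libraries per group, a fit without 1 library assumes that the lone sample varies like the others.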
